A study of Mus musculus with 6 samples.

Results

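A set of 10 genes of the T cell receptor complex and of lymphocyte activation was followed in sorted skin fibroblast samples: Cd3d, Cd3e, Cd3g, Cd247, Lck, Cd2, Cd69, Il7r, Il2rb and Il2rg. Every probe set whose platform annotation names 1 of these genes and no other was taken. That gave 13 probe sets for 8 genes, out of 18193 genes with a probe set of their own. No probe set in the annotation used here names Lck or Il2rg alone, and these 2 genes are not analysed here.

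The samples were cells positive for PDGFRα, a surface receptor of fibroblasts, collected by flow cytometry from mouse ears at 4 months of age. Cells labelled CAF, for cancer-associated fibroblasts, were taken from ears with visible dysplasia of male K14-HPV16 mice, which carry human papillomavirus 16 sequences under a keratin 14 promoter active in basal keratinocytes, so that the transgene is not directed to the fibroblasts. Normal dermal fibroblasts (NDF) came from normal ears of male FVB/n mice without the transgene. The labels name no other treatment of either group. Each group had 3 arrays, called biological repetitions in the labels, and the protocol gives 15 mice per genotype without stating how they were divided. The p-values therefore measure the spread between these samples, which may be technical. The values are log2 array intensities, and 1 unit is a doubling. The question behind the series is whether fibroblasts of incipient skin neoplasia take on a programme of inflammation.

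The T cell receptor has no signalling part of its own. It is held at the surface by CD3γ, CD3δ, CD3ε and the ζ chain, whose cytoplasmic tails are phosphorylated by the kinase LCK and then bind ZAP-70. CD2 and CD28 lend adhesion and costimulation, and CD69 appears soon after stimulation and retains lymphocytes in tissue. The receptors for interleukin 7, 2 and 15 share the common γ chain and maintain T cells, which in mouse skin include a resident γδ population in the epidermis.

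Genes of this group were higher in the samples sorted from dysplastic skin, but not all of them. Cd69, Il7r and Cd3g rose. Cd3e differed by over 4 log2 units without passing the test, Cd3d and Cd2 by less, and Il2rb and the ζ chain gene Cd247 overlapped between the groups. By limma with Benjamini-Hochberg adjustment over all genes, 3 of the 8 genes passed at an adjusted p under 0.05, all higher in CAF, beside 0.517% of all genes called in either direction and 0.489% of all genes called higher. Before adjustment 6 of the 8 were higher at p under 0.05 and 0 lower, where 4.93% of all genes were higher. All 3 CAF arrays lay above all 3 NDF arrays for 6 of the 8 genes, and below them for 0, where 6.78% of all genes lay above and 8.66% below. The median difference was 2.07 over the 8 genes and -0.04 over all genes. Omitting NDF replicate 1, 2 or 3 or CAF replicate 2 left 0 of the 8 genes past the threshold. Omitting CAF replicate 1 left 4, and omitting CAF replicate 3 left 2. The count over all genes in these fits, in the same order, was 11, 8, 5, 40, 102 and 156, against 94 with all arrays. Of the 8 genes, Cd69 alone passed without NDF replicate 1 and CAF replicate 3 together, where 113 of all genes were called. With each probe set tested on its own over the 45037 probe sets, 1 of the 13, that of Cd69, passed (adjusted p = 0.0385, limma), where 0.144% of all probe sets were called higher. Before adjustment 7 of the 13 were higher at p under 0.05, where 3.82% of all probe sets were.

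**Figure D1:**
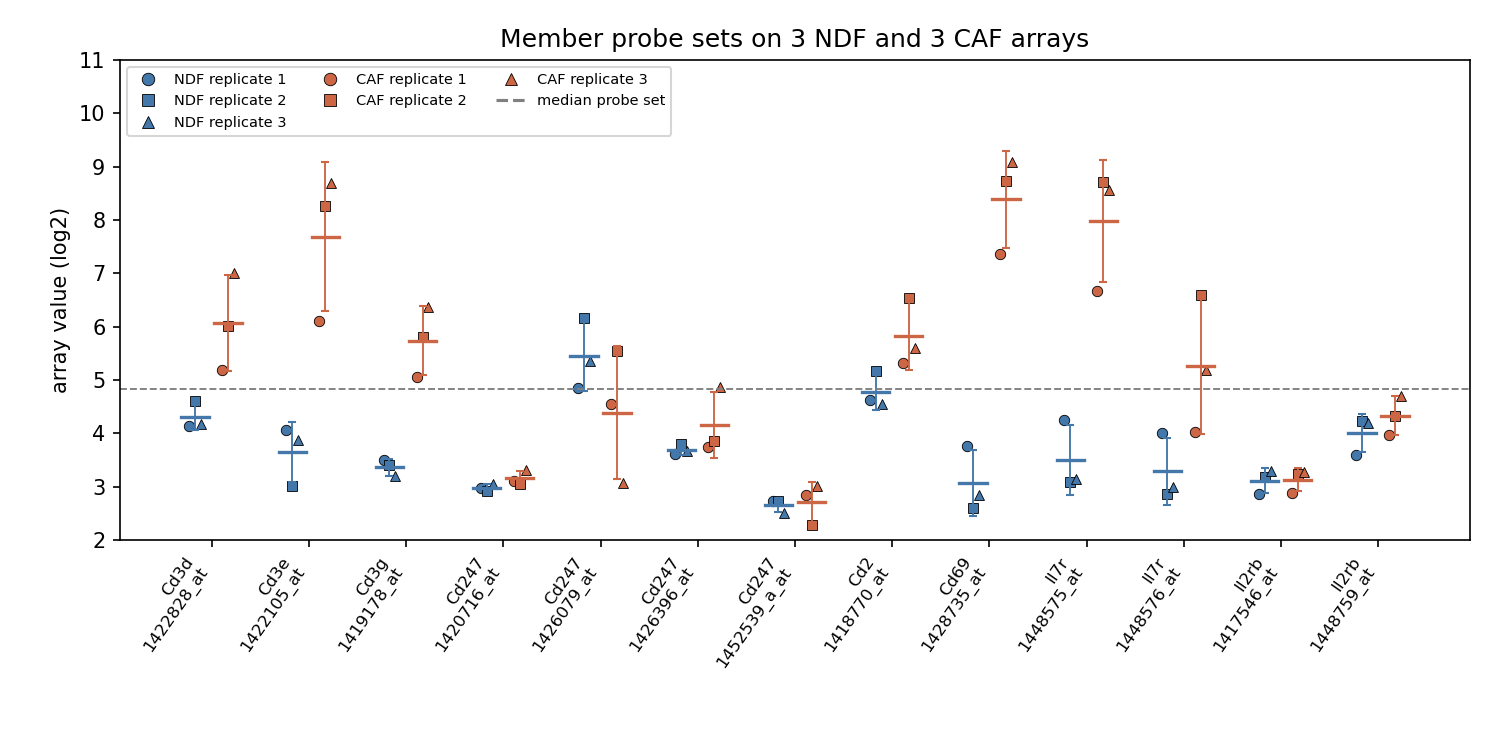
Array values (log2) of the 13 probe sets on 3 NDF arrays (blue) and 3 CAF arrays (orange); horizontal bars are group means, vertical bars are 1 SD, and the dashed line is the median of all probe set means, 4.84. The CAF arrays of Cd3e, Cd69 and Il7r (1448575_at) lie from 6.10 to 9.09, all above their NDF arrays, while the Cd247 and Il2rb probe sets stay close together or overlap.

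The NDF arrays held little signal for most of these genes. For 12 of the 13 probe sets the NDF mean lay below the median of all probe set means, 4.84, and a probe set of Cd247 (1426079_at) was the exception. Values near the floor of this scale are compressed, so a difference from the NDF arrays is a value on this scale and not a ratio of transcripts. In bulk samples fewer cells of a type and less RNA per cell cannot be told apart.

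Cd3g encodes the γ chain of CD3. Its probe set read 3.50, 3.40 and 3.19 on NDF replicates 1 to 3 and 5.06, 5.80 and 6.36 on CAF replicates 1 to 3. All NDF arrays lay close together at the low end, and every CAF array was above them, with replicate 3 highest. Cd3g rose by 2.38 ± 0.33 (SE, n = 3 per group; limma adjusted p = 0.0461). Leaving out CAF replicate 1 or 3 kept the call, whereas without NDF replicate 1, 2 or 3 or CAF replicate 2 the adjusted p was 0.174, 0.203, 0.227 and 0.13. The call was also lost on quantile normalisation (adjusted p = 0.0715).

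Cd3e encodes the ε chain, which pairs with both γ and δ. Its values were 4.05, 3.01 and 3.88 on the NDF arrays and 6.10, 8.27 and 8.70 on the CAF arrays. CAF replicate 1 was 2.17 to 2.60 below the other CAF arrays and still above every NDF array. The difference was 4.05, with a 95% interval of 2.42 to 5.67, and the adjusted p was 0.0783 by limma. It was 0.0144 without CAF replicate 1, 0.0419 with an intensity trend in the prior and 0.04 with array quality weights. Those were the only 3 of 19 alternatives under which Cd3e passed. Without NDF replicate 1, 2 or 3 or CAF replicate 2 the adjusted p was 0.22, 0.307, 0.289 and 0.202.

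Cd3d encodes the δ chain. It read 4.14, 4.60 and 4.18 on the NDF arrays and 5.20, 6.01 and 7.0 on the CAF arrays. The groups did not overlap, and CAF replicate 3 was again highest. The difference of 1.76 had an interval of 0.71 to 2.82 and did not pass (limma adjusted p = 0.222).

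The 3 CD3 genes are neighbours on mouse chromosome 9. In the RefSeq table of assembly GRCm38.p6, Cd3g and Cd3d are transcribed away from each other, with 1355 bases between their starts, and Cd3e starts 27825 bases from Cd3d. They are shown with Cd247, the chain gene whose values overlapped between groups. The stretches below are the 250 bases before each RefSeq start, 5′ to 3′ on the coding strand. Capitals mark GGAA on either strand (TTCC on the strand shown), the core that transcription factors of the ETS family bind.

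Cd3g promoter, chr9:44980432-44980681, minus strand: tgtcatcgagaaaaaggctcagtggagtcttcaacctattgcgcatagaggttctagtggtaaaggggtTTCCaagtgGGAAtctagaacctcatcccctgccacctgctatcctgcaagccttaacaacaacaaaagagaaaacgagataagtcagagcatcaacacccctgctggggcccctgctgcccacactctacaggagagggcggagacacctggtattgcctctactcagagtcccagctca
Cd3d promoter, chr9:44981536-44981785, plus strand: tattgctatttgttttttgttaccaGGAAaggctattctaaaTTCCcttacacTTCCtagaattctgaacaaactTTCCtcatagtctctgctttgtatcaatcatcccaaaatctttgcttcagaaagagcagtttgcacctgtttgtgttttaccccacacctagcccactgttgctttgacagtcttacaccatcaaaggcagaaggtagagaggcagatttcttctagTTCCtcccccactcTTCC
Cd3e promoter, chr9:45009612-45009861, minus strand: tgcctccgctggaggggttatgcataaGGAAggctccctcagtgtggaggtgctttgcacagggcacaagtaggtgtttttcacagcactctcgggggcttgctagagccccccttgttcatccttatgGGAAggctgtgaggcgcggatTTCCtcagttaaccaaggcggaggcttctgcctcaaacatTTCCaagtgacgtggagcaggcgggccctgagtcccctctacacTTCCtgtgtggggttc
Cd247 promoter, chr1:165788431-165788680, plus strand: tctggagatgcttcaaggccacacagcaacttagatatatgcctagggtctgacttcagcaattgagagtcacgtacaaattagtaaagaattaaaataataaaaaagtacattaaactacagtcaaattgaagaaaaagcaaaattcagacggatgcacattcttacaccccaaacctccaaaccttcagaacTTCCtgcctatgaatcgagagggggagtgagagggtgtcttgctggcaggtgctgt

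GGAA occurred 2 times before Cd3g, 6 times before Cd3d, 5 times before Cd3e and 1 time before Cd247. It is common: 93.4% of all 32851 RefSeq promoter stretches of 250 bases hold it on either strand, with a median of 3. The hexamer TATAAA was found on neither strand in these 4 stretches, and 12.4% of all stretches hold it. TGTGGT, a form of the RUNX site, was also not found in the 4 stretches, and 14% of all hold it. The E-box CANNTG, its own reverse complement, occurred 3 times before Cd3g, 1 time before Cd3d, 1 time before Cd3e and 2 times before Cd247, and 66.2% of all stretches hold it. A match describes the letters and is not a measured site. RefSeq promoter sequences were found for 5 of the 8 measured genes. Of the factors, Ets1 read 9.96 ± 0.12 in NDF and 10.76 ± 0.41 in CAF (SD, n = 3; limma adjusted p = 0.353), a difference of 0.80, against a median of 1.56 over 3 further probe sets. Runx3, which directs cytotoxic T cells, read 4.50 ± 0.08 and 5.16 ± 0.08 (limma adjusted p = 0.218), against -0.36 for a second probe set.

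Cd247 encodes the ζ chain, which carries most of the phosphorylation motifs of the complex. It has 4 probe sets, and they did not move together. The brightest, 1426079_at, read 4.85, 6.16 and 5.35 on the NDF arrays and 4.55, 5.54 and 3.07 on the CAF arrays. The groups overlapped, and CAF replicate 3, highest for the 3 CD3 genes, was lowest here. Its difference was -1.07, with an interval of -2.60 to 0.46 (limma adjusted p = 0.744). Probe set 1426396_at read 3.62, 3.81 and 3.66 on the NDF arrays and 3.74, 3.85 and 4.86 on the CAF arrays, so that only CAF replicate 3 stood apart upwards. The remaining pair, 1420716_at and 1452539_a_at, differed by 0.17 and 0.06, and no array of either exceeded 3.31.

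Cd2 encodes an adhesion receptor of T and natural killer cells. It read 4.62, 5.16 and 4.55 on the NDF arrays and 5.33, 6.55 and 5.60 on the CAF arrays. CAF replicate 1 was only just above the highest NDF array. The difference was 1.04, with an interval of 0.20 to 1.89 (limma adjusted p = 0.427). Among 7 measured genes of Cd2 ligands and LCK partners, 0 passed and 1 was higher at p under 0.05 before adjustment. That gene, Cd48, the mouse ligand of CD2, read 3.30, 3.63 and 3.65 on the NDF arrays and 4.14, 4.58 and 6.80 on the CAF arrays (limma adjusted p = 0.526). Unc119 and the receptor gene Slamf1 differed by 0.55 and 0.51 (limma adjusted p = 0.598 and 0.681), and the median over 2 further Slamf1 probe sets was 0.06.

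Cd69 had the largest difference of the 8 genes. It read 3.76, 2.59 and 2.85 on the NDF arrays and 7.36, 8.72 and 9.09 on the CAF arrays. The lowest CAF array was 3.60 above the highest NDF array. Cd69 rose by 5.32 ± 0.51 (SE; limma adjusted p = 0.0186). Without NDF replicate 1, 2 or 3 the adjusted p was 0.0547, 0.096 and 0.109, and without CAF replicate 2 it was 0.0547, while the difference ranged from 5.09 to 5.67. CD69 is not restricted to T cells: activated neutrophils, macrophages and natural killer cells also carry it.

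Il7r encodes the α chain of the interleukin 7 receptor, which also forms the receptor for the epithelial cytokine TSLP. Probe set 1448575_at read 4.26, 3.09 and 3.15 on the NDF arrays and 6.66, 8.71 and 8.56 on the CAF arrays. NDF replicate 1 was the highest normal array, and CAF replicate 1 the lowest dysplastic one. Il7r rose by 4.48 ± 0.60 (SE; limma adjusted p = 0.0412). The adjusted p was 0.114, 0.19, 0.2, 0.103 and 0.0544 without NDF replicate 1, 2 or 3, CAF replicate 2 or CAF replicate 3. Its second probe set, 1448576_at, read 4.00, 2.86 and 3.00 on the NDF arrays and 4.02, 6.59 and 5.19 on the CAF arrays. There CAF replicate 1 was level with NDF replicate 1, and the difference was 1.98. With the mean of both probe sets Il7r differed by 3.23 (limma adjusted p = 0.0828).

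Il2rb encodes the β chain shared by the interleukin 2 and 15 receptors, and is high on natural killer and memory T cells. Probe set 1448759_at read 3.60, 4.24 and 4.19 on the NDF arrays and 3.97, 4.32 and 4.70 on the CAF arrays, with overlap. The difference was 0.33, with an interval of -0.33 to 0.98 (limma adjusted p = 0.843). The other probe set, 1417546_at, differed by 0.02, and no array of it exceeded 3.30.

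**Figure D2:**
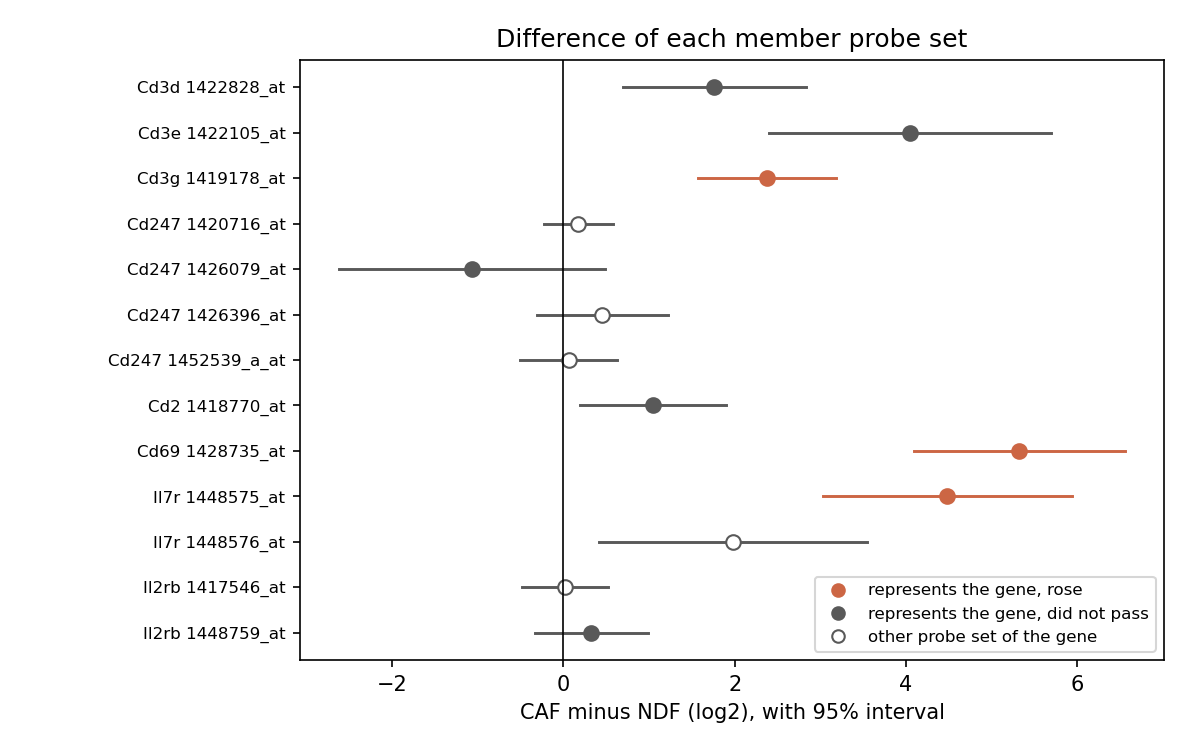
Difference CAF minus NDF (log2) of each of the 13 probe sets with its 95% interval from the limma fit over all probe sets. Filled points stand for the probe set that represents its gene and open points for other probe sets of the gene. Orange marks genes that rose in the separate fit over all genes. In the fit drawn, only Cd69 passed. Cd69, Il7r and Cd3e lie above 4, the second Il7r probe set at 1.98, and the Cd247 and Il2rb intervals all include 0.

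The ligands, other receptor chains and signalling genes of the interleukin 2, 7 and 15 system were examined next. Of 20 measured genes of the common γ chain family, 1 rose and 0 fell, with 3 higher and 0 lower at p under 0.05 before adjustment, and the median was 0.20. Il2ra, the α chain that makes the interleukin 2 receptor high affinity, read 4.17, 4.17 and 4.12 on the NDF arrays and 5.39, 5.57 and 5.94 on the CAF arrays. It rose by 1.48 ± 0.20 (SE; limma adjusted p = 0.0412), against 0.06 for a second probe set. Tslp, a cytokine of keratinocytes that signals through IL7R and CRLF2, read 4.22, 6.0 and 4.89 on the NDF arrays and 7.32, 6.70 and 7.38 on the CAF arrays. It did not pass (limma adjusted p = 0.154). Il15ra, which presents interleukin 15, differed by 1.19 (adjusted p = 0.229). The ligand gene Il7, chosen after its values were seen, read 4.91 ± 0.18 and 5.15 ± 0.50 (limma adjusted p = 0.9).

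Several genes induced on T cell stimulation were high in CAF. Of 19 measured activation and checkpoint genes, 3 rose and 0 fell, 9 were higher at p under 0.05 before adjustment, and the median was 0.54. Besides Il2ra, they were the orphan nuclear receptor Nr4a1 and the zinc finger factor Egr2, at 2.99 ± 0.34 and 2.11 ± 0.25 (SE; limma adjusted p = 0.0252 and 0.028). Both are immediate-early genes that many cell types induce, fibroblasts included, and Egr2 was already at 9.63 to 10.03 on the NDF arrays. Ctla4, the inhibitory receptor that competes with CD28, read 4.10, 4.34 and 4.79 on the NDF arrays and 5.63, 7.59 and 8.05 on the CAF arrays (limma adjusted p = 0.175). The costimulator gene Icos read 4.64, 3.63 and 3.69 on the NDF arrays and 5.82, 7.90 and 5.87 on the CAF arrays (adjusted p = 0.19), and the median over 2 further probe sets was 1.64. Other genes of the list did not pass. Tnfrsf9 and Egr3 differed by 2.30 and 1.75 (limma adjusted p = 0.116 and 0.107), but by 0.21 (median) and -0.26 in other probe sets. The cytokine genes Il2, Ifng and Il17a differed by -0.24, 0.09 and 0.05, the CD40 ligand gene Cd40lg by -0.21 and the checkpoint gene Lag3 by -0.16. These 5 had means below the median probe set, so their differences were read on dim probe sets. They, Tnfrsf9, Egr3, Ctla4 and Icos were chosen after their values were seen.

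Coreceptor and surface genes of T cells gave no calls. Of 12 measured genes, 0 passed by limma, 0 were higher and 0 lower at p under 0.05 before adjustment, and the median was -0.02. Cd8b1, Cd27 and Thy1 had the smallest p, with differences of -0.30, 0.24 and 0.21. Thy1, also a fibroblast gene, stood at 8.94 ± 0.17 in NDF and 9.16 ± 0.37 in CAF (limma adjusted p = 0.891). Cd4 and Cd8a, the genes of the main coreceptors, chosen after their values were seen, differed by -0.01 and -0.03. Cd4 read 5.69, 5.89 and 5.95 on the NDF arrays and 5.50, 5.63 and 6.36 on the CAF arrays. Of these 12 genes, 8 had a mean below the median probe set, where 6602 of all 18193 genes did. Most of these differences were thus read on dim probe sets.

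Receptor chain genes were thinly covered, because the annotation names 1 of the 17 listed, Tcra. It read 3.07 ± 0.06 in NDF and 3.05 ± 0.26 in CAF. A further 4 variable segment genes were added once their names had been seen in the annotation, and 1 of them rose. Trbv1, a β chain segment, read 4.49, 4.28 and 4.51 on the NDF arrays and 6.48, 6.61 and 7.46 on the CAF arrays (difference 2.42 ± 0.29, limma adjusted p = 0.028). Its probe set can cross-match related transcripts by its suffix, and a second probe set gave 0.08. Trgv4, a γ chain segment, read 3.43, 3.41 and 2.97 on the NDF arrays and 3.70, 3.71 and 7.04 on the CAF arrays (adjusted p = 0.71). Trbv13-2 and Trgv1 differed by 0.11 and 0.04. Both group means of Tcra, Trbv13-2 and Trgv1 lay below 3.60, the 25th percentile of all probe set means. A lack of difference there does not show that these chains were unchanged.

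Among 22 measured genes of signalling next to the receptor, 1 rose and 0 fell, and 4 were higher and 1 lower at p under 0.05 before adjustment. The median was 0.16. The 1 that rose was Ptprc, the phosphatase CD45 that activates LCK and is present on all leukocytes, at 4.33 ± 0.45 (SE; limma adjusted p = 0.0197), with 0.89 for its other probe set. Rasgrp1, the Ras activator of T cells, differed by 1.30 (limma adjusted p = 0.157), and the median over 3 further probe sets was -0.17. The adaptor gene Lcp2 differed by 0.90 (adjusted p = 0.353) and by 1.01 in a second probe set. Zap70, the kinase that binds the phosphorylated chains, chosen after its values were seen, read 5.63, 5.68 and 5.49 on the NDF arrays and 5.0, 4.95 and 5.43 on the CAF arrays (limma adjusted p = 0.556). All CAF arrays of Zap70 lay below the NDF arrays, and the median over 2 further probe sets was -0.11. Of 10 T cell transcription factor genes 1 rose and 0 fell, with a median of 0.57. It was Ikzf1, a factor of all lymphoid lineages, at 3.71 ± 0.43 (SE; limma adjusted p = 0.0252), against -0.15 for a second probe set.

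**Figure D3:**
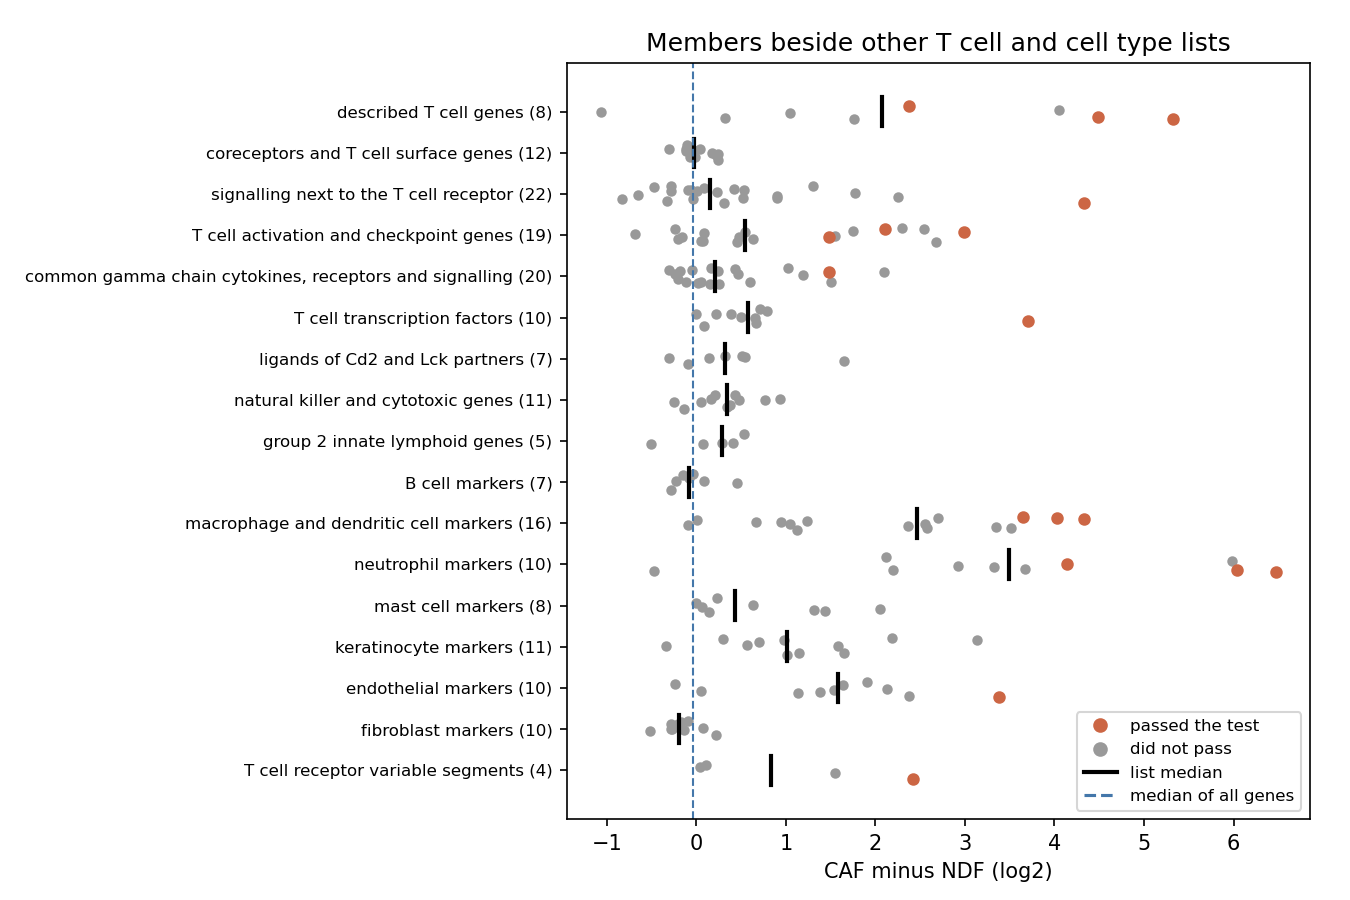
Difference CAF minus NDF (log2) of each measured gene, by list, with the number of genes in brackets; orange points passed the limma test over all genes, black bars are list medians and the dashed line is the median of all genes, -0.04. The 8 described genes (top row) have a median of 2.07, the coreceptors -0.02, and the macrophage and neutrophil markers 2.46 and 3.50.

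Arrays within CAF differed, and the genes did not share 1 order. Of the 8 genes, 5 were highest on CAF replicate 3 (Cd3d, Cd3e, Cd3g, Cd69 and Il2rb) and 3 on CAF replicate 2 (Cd2, Il7r and Cd247). Over all genes, 21% were highest among the CAF arrays on replicate 2 and 48.7% on replicate 3. That array stood apart, with correlations of 0.913 to 0.932 with the other arrays over all probe sets, where the other 5 correlated at 0.960 to 0.983 among themselves. A few genes of the T cell lists were much higher on it than on the other CAF arrays. Ptpn22, a phosphatase that restrains T cell signalling, read 3.78, 4.73 and 7.79 on CAF replicates 1 to 3. The guanine exchange factor gene Vav1 read 3.80, 4.11 and 7.33, and the checkpoint gene Pdcd1 4.73, 4.80 and 7.19. On the NDF arrays Ptpn22 read 2.99 to 3.30, Vav1 3.04 to 3.52 and Pdcd1 3.92 to 4.14. Every CAF array of these 3 genes thus lay above the NDF arrays of the same gene. None passed the test by limma (adjusted p = 0.555, 0.655 and 0.551), and a second Vav1 probe set differed by 0.0065. Ptpn22, Vav1 and Pdcd1 were chosen after their values were seen.

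**Figure D4:**
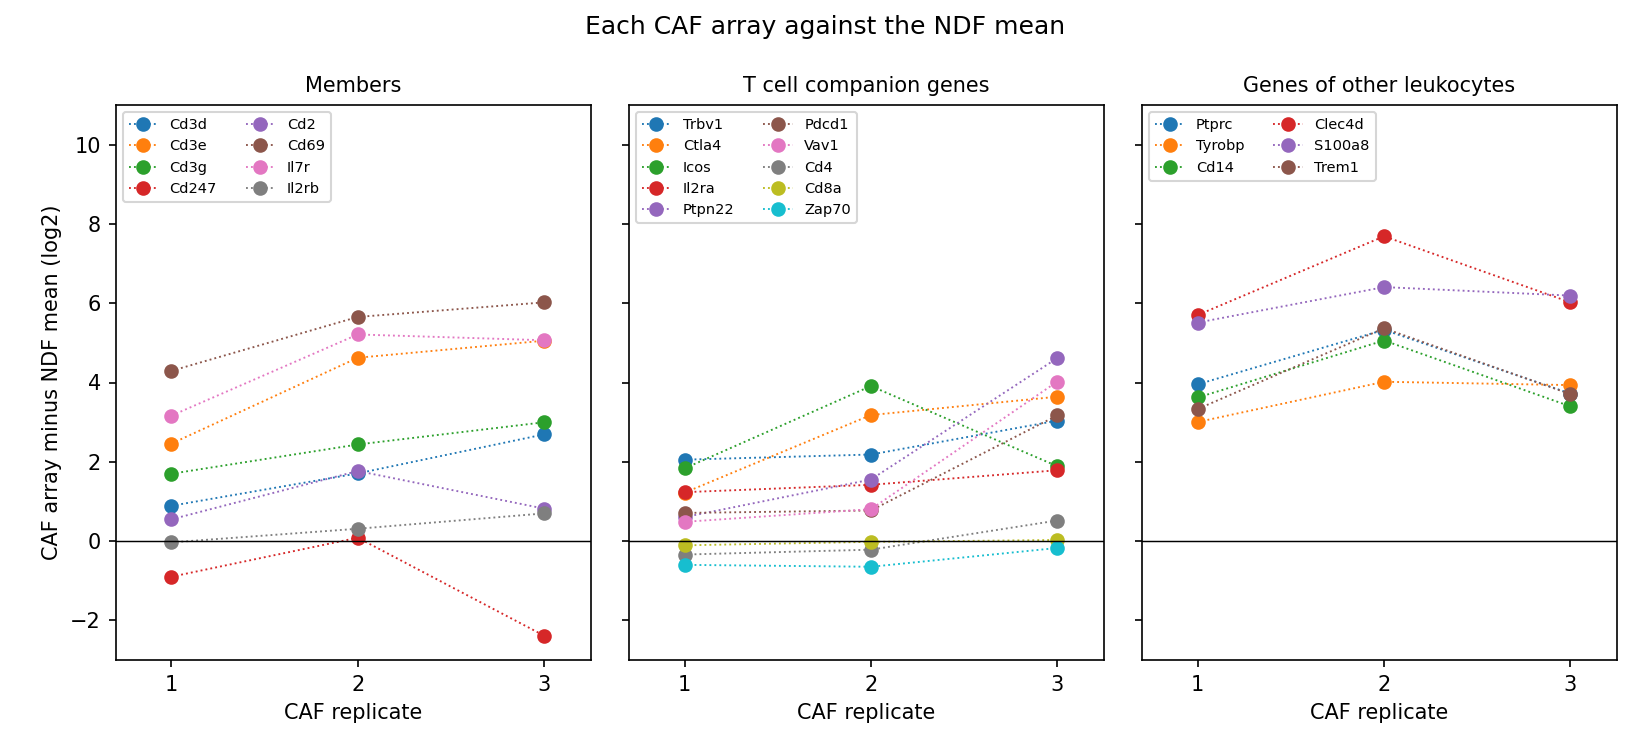
Value of each CAF array minus the NDF mean of the gene (log2). Panels show the 8 described genes, 10 other T cell genes and 6 genes under the heading of other leukocytes. These 6 are the macrophage, dendritic cell and neutrophil markers that passed the test, and markers that did not pass are not drawn. Among the 6, Ptprc is present on all leukocytes, T cells included. Dotted lines only join the values of 1 gene. Cd3e is 2.46, 4.62 and 5.05 above its NDF mean on CAF replicates 1 to 3, Ptpn22 0.60, 1.55 and 4.62, and Clec4d 5.70, 7.69 and 6.02.

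Markers of other leukocytes moved on the same arrays, and their part in these results was not tested. Of 10 measured neutrophil markers 3 rose, 9 were higher at p under 0.05 before adjustment, and the median was 3.50. They were Clec4d, S100a8 and Trem1, at 6.47, 6.04 and 4.14. The summed intensity of the neutrophil list on the linear scale ran from 1017 to 1634 on the NDF arrays and from 9466 to 20307 on the CAF arrays. Such a sum rests mostly on its brightest genes, on the CAF arrays S100a8 and S100a9, at log2 values of 11.66 to 12.82. S100a9 was chosen after its values were seen. Of 16 macrophage and dendritic cell markers 3 rose (Tyrobp, Ptprc and Cd14), 10 were higher at p under 0.05 before adjustment, and the median was 2.46. Their summed intensity was 691 to 1144 on the NDF arrays and 3023 to 9603 on the CAF arrays. Ptprc is present on all leukocytes and was also counted among the signalling genes, so it does not mark macrophages alone. Among the CAF arrays, replicate 3 was the highest for 5 of the 8 described genes, 10 of the 16 macrophage and dendritic cell markers and 1 of the 10 neutrophil markers, and replicate 2 for 3, 6 and 8 of them. Over all genes, replicate 3 was highest for 48.7% and replicate 2 for 21%. Among genes higher at p under 0.05 before adjustment by limma the shares were 50.5% and 31.2%. The counts of the 8 described genes were near these shares.

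Genes of other lymphoid cells were compared on the same arrays. Of 11 natural killer and cytotoxic genes 0 passed by limma and 1 was higher at p under 0.05 before adjustment, with a median of 0.34. It was Klrk1, the NKG2D receptor gene, at 2.90 ± 0.20 in NDF and 3.67 ± 0.49 in CAF (limma adjusted p = 0.471). The pore protein gene Prf1 and the granzyme gene Gzmb differed by 0.34 and 0.48 (adjusted p = 0.633 and 0.665). Their summed intensity was 156 to 185 on the NDF arrays and 176 to 261 on the CAF arrays. Of 7 B cell markers 0 passed and 0 were higher or lower at p under 0.05 before adjustment, with a median of -0.09 and summed intensities of 131 to 136 and 116 to 165. Blk, Pax5 and Cd79b, with the smallest p, differed by 0.45, -0.28 and -0.23. Of 5 group 2 innate lymphoid genes 0 passed by limma and 1, Il13, was higher at p under 0.05 before adjustment, at 0.41. Arg1 and Klrg1 differed by 0.54 and 0.29, and the list's median was 0.29. Most genes of these 3 lists were dim. Over all 18193 genes, 6602 had a mean below the median probe set. In these lists it was 10 of the 11 natural killer and cytotoxic genes, 6 of the 7 B cell markers and 4 of the 5 group 2 innate lymphoid genes. A lack of calls there does not show that these cells were unchanged.

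Non-leukocyte markers were also compared. Of 11 keratinocyte markers 0 passed by limma and 6 were higher at p under 0.05 before adjustment, with a median of 1.01, led by Krt1, Krt14 and Krt5 at 3.13, 2.19 and 1.65. Of 10 endothelial markers 1, Lyve1, rose, at 3.38, and 8 were higher at p under 0.05 before adjustment, with a median of 1.59; Flt1 and Emcn differed by 2.37 and 2.13. Of 8 mast cell markers 0 passed by limma and 3 were higher at p under 0.05 before adjustment, with a median of 0.44; they were Fcer1a, Gata2 and Ms4a2, at 1.31, 2.05 and 1.44. Fibroblast markers were bright on every array, and of 10 measured 0 passed by limma, 0 were higher and 1 was lower at p under 0.05 before adjustment. Col1a2, Col3a1 and Dpt differed by -0.52, -0.20 and -0.28. The sort marker Pdgfra was at 12.46 ± 0.15 in NDF and 12.54 ± 0.11 in CAF.

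Besides the members, 12 genes of these lists passed the limma test, and their calls also depended on single arrays. Of these 12, 0 passed without NDF replicate 2 or 3, and S100a8 alone passed without NDF replicate 1. Without CAF replicate 1, 2 or 3 the number was 9, 6 and 12. With 1 array left out, Il2ra passed only without CAF replicate 3. It missed the threshold on quantile normalisation and with equal array medians (adjusted p = 0.0836 and 0.0572), and Trbv1 missed it on quantile normalisation (adjusted p = 0.0531).

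Profiles across the 6 arrays were compared with those of 11591 genes whose mean was at or above the median probe set. Likeness was the root mean square distance between values centred on each gene's mean. Closest to Cd3g were the macrophage gene Mpeg1, at 0.15 log2 units, then Trbv1 at 0.22 and the nuclear protein gene Csrnp1 at 0.25. Closest to Cd69 were the acute phase gene Saa3 at 0.41, Il7r at 0.47 and Lcn2, of an iron-siderophore binding protein, at 0.48. Closest to Il7r were Wfdc17 at 0.34, Cd3e at 0.42 and the urea transporter gene Slc14a1 at 0.45. With 6 arrays in 2 groups, such distances mainly reflect the group difference and describe only these arrays.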

How the data were processed

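RNA was amplified once, labelled with biotin and hybridised to Affymetrix mouse arrays. The deposited values are log2 intensities per probe set, made with GCOS and RMA per the submitters' processing notes, which state no versions here. RMA corrects background and quantile normalises, which removes total intensity and compresses dim values. Gene names came from the platform annotation, in which 34945 of 45037 probe sets (64 controls left out) name 1 gene. Each gene was represented by its probe set with the highest mean, giving 18193 genes.

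The groups were compared in R 4.3.3 by limma 3.58.1 (lmFit and eBayes, two-sided, group as the only term, Benjamini-Hochberg adjustment over all genes, threshold 0.05), and again over every probe set. The procedure was tested on simulated data. The number of arrays limits the precision. Promoter stretches came from RefSeq (GRCm38.p6). Figures used matplotlib 3.10.9 in Python 3.11.15.

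The members and lists were chosen with earlier results of these data known. The text names every member, the 3 genes of each list with the smallest p, those past the threshold, the sort marker Pdgfra and the 3 nearest profiles of each member that rose; others are marked as chosen after their values were seen. The alternatives were a replicate block, other scalings, filters on dim genes, other probe set rules, other variance priors, array weights and leaving out arrays. The labels do not say whether equal replicate numbers pair the samples, and the main fit treated them as unpaired. The correlations of deviations from the group means were -0.14, 0.14 and -0.04. With 3 arrays per group these cannot decide whether the samples were paired.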

Additional observations from a re-analysis of the deposited data

How the results depend on the processing

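The number of described genes that passed was 0 to 4 when each array was left out in turn, and the count over all genes was 5 to 156 against 94. Of the described genes, 1 passed on quantile normalisation, with every probe set on its own and without NDF replicate 1 and CAF replicate 3 together. The counts over all in these fits were 73 genes, 79 probe sets and 113 genes. With the replicate number as a block, 0 of the 8 and 20 of all genes passed. The labels do not say whether equal replicate numbers pair the samples. The correlations of deviations, -0.14, 0.14 and -0.04, cannot decide it with 3 arrays per group. An intensity trend gave 155 genes in all and array quality weights 438. The sign of each difference was kept under every alternative in which the gene was tested, except that Il2rb was at -0.066 without NDF replicate 1 and CAF replicate 3 together; the cause was not tested. Cd69 passed under 14 of 19 alternatives, Cd3g under 10 of 18, Il7r under 8 of 19 and Cd3e under 3 of 19, and Cd3d, Cd2, Cd247 and Il2rb under 0. Dim values limit the precision. Of the 13 probe sets, 7 had a mean below the median probe set and 3 below the 25th percentile. By definition these limits divide all probe sets, and both counts are near the shares over all probe sets.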
